A study of Rattus norvegicus with 10 samples.

Results

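Transcripts of 10 heat shock protein genes were followed in the neurointermediate lobe of the pituitary: Hspb1, Cryab, Hspa4l, Hspa8, Hsph1, Hsp90aa1, Hsp90ab1, Dnaja1, Dnajb1 and Hspd1. They were found on the array as every probe set annotated with 1 gene symbol that equalled a member. This gave 12 probe sets of 31042 and 8 of the 14217 genes that the annotation names singly, 4 genes with 1 probe set and 4 genes with 2. Hspa8 and Hsp90aa1 were read only by probe sets that also carry the symbol of a second gene, and no value is assigned to them. All 12 probe sets passed the filter on dim signals. The group is usually called cytosolic, although Hspd1 encodes a chaperonin of the mitochondrial matrix.

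Dehydrated pools came from male Sprague Dawley rats aged 10 to 12 weeks after 3 days of dehydration, and control pools from rats of the same sex, strain and age labelled as controls. Each group was measured on 5 Affymetrix Rat Genome 230 2.0 arrays, each hybridised with RNA from its own pool of 5 animals, so that p-values refer to the spread between pools. The sample labels and the title name the neurointermediate lobe, whereas the design text names the supraoptic nucleus; the sample labels were followed. This dissection joins the neural lobe, which holds hypothalamic axon endings and glial pituicytes, to the melanotroph cells of the intermediate lobe.

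Heat shock proteins are molecular chaperones that keep other proteins folded or help them to refold. Small heat shock proteins hold unfolded clients without using ATP, HSP70 proteins bind and release clients with the help of J-domain proteins and of HSP110 exchange factors, and HSP90 proteins mature steroid receptors and kinases. The heat-inducible members are switched on by the heat shock factor HSF1, which binds inverted repeats of a short GAA unit in their promoters. In kidney medulla cells under hypertonic stress, small heat shock proteins and HSP70 are among the chaperones known to be induced.

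Promoters of 7 of the 8 measured genes were taken from RefSeq (build GRCr8) and the 250 bases before each gene start were searched on both strands for paired GAA units, GAANNTTC or TTCNNGAA, each of which is its own reverse complement. Of these 7 promoters 5 held at least 1 match, against 13.5% of 33469 promoters of the same length. A run of 3 units, in which such a pair is followed after another 2 bases by its first unit again, overlaps the paired matches and was found in 2 of the 7, Hsph1 and Hspd1, against 0.663% of all promoters. A match describes the letters in the window and is not evidence of factor binding. The matched stretches are shown because they place the gene whose transcript differed beside genes with the same motif whose transcripts did not pass the test. Capitals mark the matches, and each line runs 5′ to 3′ on the gene's strand.
Hspb1: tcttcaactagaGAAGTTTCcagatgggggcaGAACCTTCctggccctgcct
Hsph1: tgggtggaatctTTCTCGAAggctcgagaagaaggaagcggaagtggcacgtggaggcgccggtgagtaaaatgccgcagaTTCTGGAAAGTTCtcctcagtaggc
Dnaja1: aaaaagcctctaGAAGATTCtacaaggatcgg
Dnajb1: tcgggaggggcgGAAGGTTCtgg
Hspd1: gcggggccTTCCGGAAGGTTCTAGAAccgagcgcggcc
The Hspb1 stretch is chr12:26432391-26432442 on the minus strand, with matches that begin 129 and 109 bases before the gene start. That of Hsph1 is chr12:10427251-10427356 on the plus strand, with matches from 105 to 31 bases before the start. The single matches of Dnaja1 (chr5:60638211-60638242, plus strand) and Dnajb1 (chr19:41431142-41431164, minus strand) begin 181 and 11 bases before the start. The run in Hspd1 (chr9:64084250-64084287, minus strand) begins 242 bases before it. In this window Hspa4l and Hsp90ab1 held no match.

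Correlations between arrays over all probe sets lay between 0.947 and 0.976, and the authors had scaled each to the same trimmed mean, so that every change is relative to the average probe set. The lobe's own transcripts were present, with signals of 735 ± 258 in dehydrated and 755 ± 111 in control pools (SD, n = 5 each) for Pomc, the melanotroph hormone precursor. Anterior lobe markers were present too, with summed signals of 4848 to 9399 in dehydrated and 2603 to 8003 in control pools over the 7 tested genes. The log2 ratio of 3′ to 5′ signals of GAPDH and beta-actin increases as RNA is shortened. It was 2.15 ± 0.38 in dehydrated and 1.78 ± 0.48 in control pools (SD, n = 5 each, exact two-sided permutation p = 0.214, smallest possible 0.00794). Dehydrated 5 had the lowest ratio of its group, 1.61, and control 1 the highest of its group, 2.52. Without these arrays the groups were separated by the ratio, at 2.05 to 2.67 in the remaining dehydrated pools, against 1.26 to 1.91 in the remaining control pools, so that dehydration and this ratio cannot be told apart there. As fewer cells of a type and less RNA per cell cannot be told apart in whole tissue, all values are relative levels in RNA of the whole dissected lobe. They do not give amounts per lobe.

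Dehydrated and control lobes were compared to ask which transcripts differed after water deprivation. Among the 8 measured heat shock genes 1 rose, Hspb1, none fell, and 7 did not pass the limma test at an adjusted p of 0.05. Over all tested genes, each read by its brightest probe set, 3.19% passed, 2.31% higher and 0.878% lower in the dehydrated group. Counted by probe set, 1 of 12 rose and none fell, where 2.46% of all tested probe sets passed, 1.68% higher and 0.784% lower. At an unadjusted p of 0.05, 2 of the 8 genes passed, Hspb1 and Hspa4l, where 18.9% of all tested genes did. By probe set 4 of 12 passed this looser limit, where 17.4% of all tested probe sets did. Passing and lower were 3 of 12, where 8.66% of all tested probe sets passed and were lower. Among all tested probe sets 3233 passed this limit, and 1612 of these were lower. The median log2 change was -0.03 over the 8 genes and 0.01 over all 10593 tested genes.

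**Figure D1:**
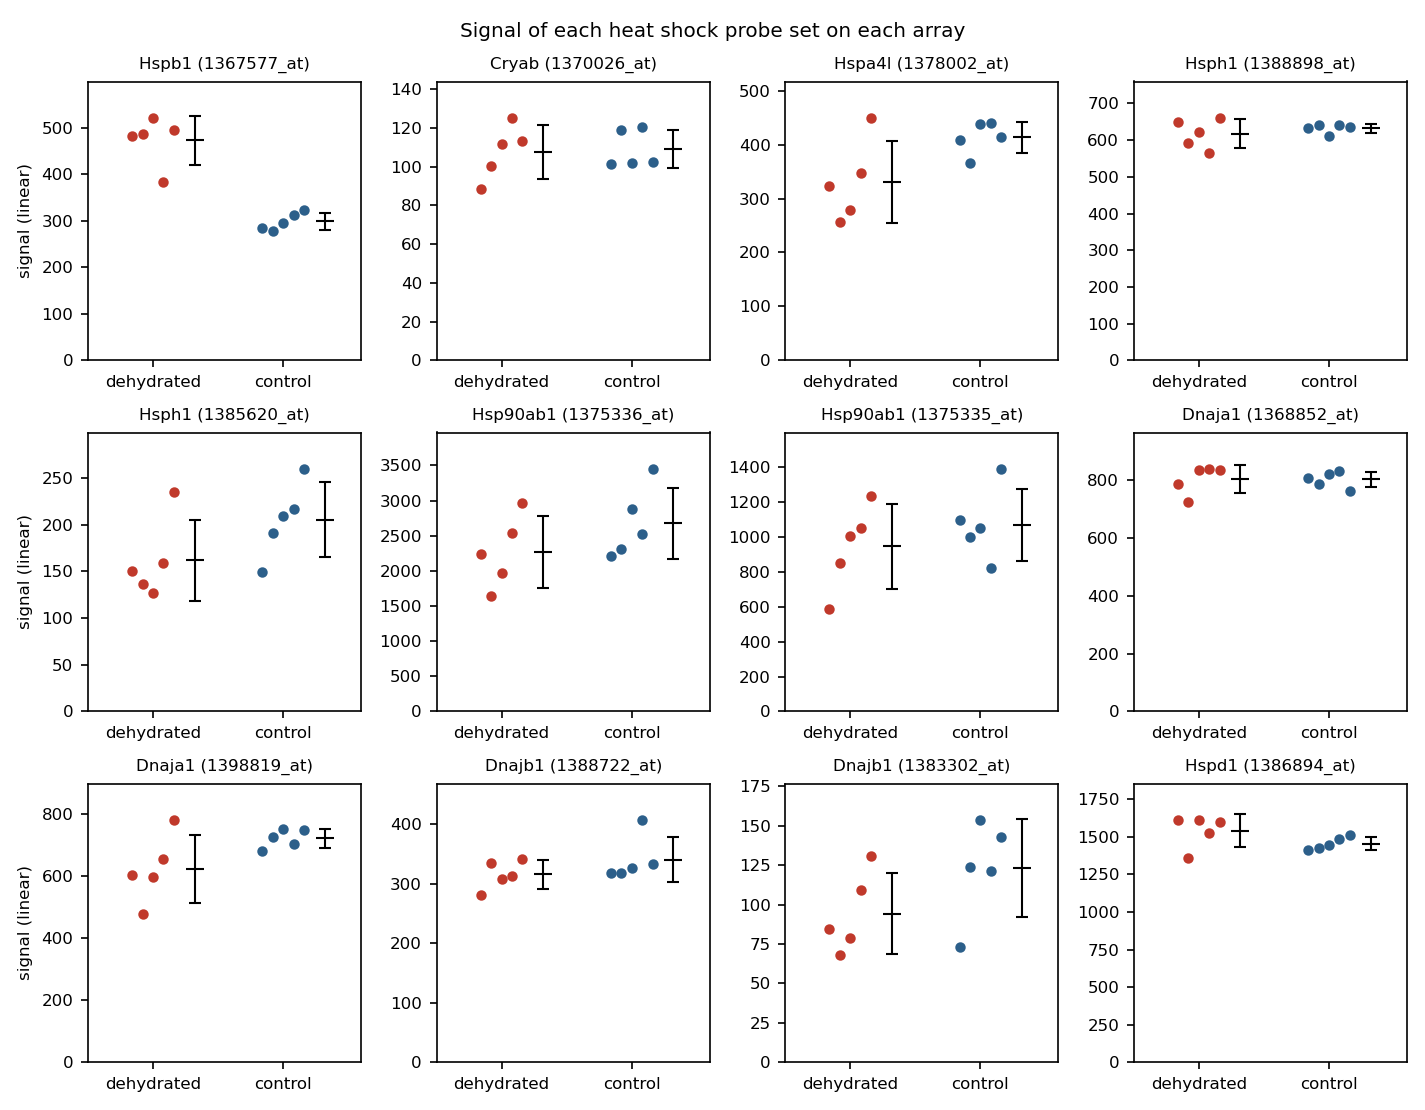
Signal on a linear scale of each of the 12 heat shock probe sets in the 5 dehydrated and 5 control pools, with 1 panel per probe set and axes that start at 0. Points are pools, and the black bar with whiskers is the mean ± SD. For Hspb1 every dehydrated pool lies above every control pool, and in each of the other panels the groups overlap.

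Hspb1 encodes HSP27 (Hsp25 in rodents), a small heat shock protein that also stabilises actin filaments. Its signals (probe set 1367577_at) were 482.9, 485.5, 521.0, 382.7 and 493.9 in dehydrated pools, against 284.1, 278.0, 295.7, 312.3 and 323.1 in control pools. The groups did not overlap, as in 4.59% of all tested probe sets (2.78% with the dehydrated group higher), and dehydrated 4 was the lowest of its group. The means were 473 ± 52.8 and 299 ± 18.9 in dehydrated and control pools (SD, n = 5 each), a 1.57-fold increase with a 95% interval of 1.38 to 1.78 (log2 change 0.65 ± 0.09 SE, limma adjusted p = 0.000442). It ranked 73 of 10593 genes by size of increase. The call held under all 23 other settings planned for the fit, with log2 changes from 0.61 to 0.72 and adjusted p up to 0.00653. On the 8 arrays without dehydrated 5 and control 1 and with the 3′ to 5′ ratio in the fit, a setting added after the data were seen that called 24 probe sets in all, the log2 change was 0.55 and did not pass (limma adjusted p = 0.443).

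Markers of several cell types differed between the same groups, where 2.31% of all tested genes rose and 0.878% fell. Of 11 tested endothelial and mural markers, 4 rose and none fell, and their summed signal was 1566 to 1948 in dehydrated and 1085 to 1409 in control pools. Among 10 markers of fibroblasts and meninges 4 rose, none fell, and sums were 9772 to 12233 in dehydrated and 6879 to 7561 in control pools. Such sums weigh bright markers most, and Mgp alone had means of 5104 in dehydrated and 2544 in control pools. The log2 change was positive for 8 and negative for 2 of these 10 markers. For the 11 endothelial and mural markers it was positive for 7 and negative for 4. Among 15 markers of pituicytes and astroglia 3 rose, none fell, and sums were 11352 to 13167 in dehydrated and 11120 to 11633 in control pools. The log2 change was positive for 11 and negative for 4 of these 15, and largest for Gfap (5.20-fold, limma adjusted p = 5.3e-06). Of 7 melanotroph markers 1 fell and none rose, Pcsk2, a convertase that cuts hormone precursors (0.54-fold, limma adjusted p = 0.00219), and sums were 5655 to 6407 in dehydrated and 6345.5 to 7323 in control pools. Fshb, a subunit of an anterior lobe hormone, fell as the only one called of 7 anterior lobe markers (0.55-fold, limma adjusted p = 0.00507). The log2 change was positive for 5 and negative for 2 of these 7, with a median of 0.26. The neuropeptide transcripts Avp and Oxt rose among 5 tested, with sums of 4344 to 5495 in dehydrated and 2612 to 2953 in control pools. Aif1 rose among 9 macrophage and microglia markers and Pmp22 among 4 myelin markers, and no other marker of either list passed. None of the tested markers was at 0 on any array, and among the vessel and glial markers Cdh5, Vwf, Cspg4, Slc1a2 and Sox9 had no tested probe set. The part of these cell types in the Hspb1 result was not tested.

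Cryab encodes alpha-B crystallin, a small heat shock protein that forms mixed oligomers with HSP27. Its signals (1370026_at) were 88.3, 100.4, 111.7, 125.1 and 113.1 in dehydrated pools, against 101.5, 118.7, 101.8, 120.5 and 102.1 in control pools. The highest and the lowest value were both from dehydrated pools, and the groups overlapped throughout. The log2 change was -0.02, with a 95% interval of -0.25 to 0.21 (limma adjusted p = 0.949), and it was positive under 7 of its alternatives. The difference between these genes was tested as the log2 ratio of Hspb1 to Cryab within each array. That ratio averaged 2.09 ± 0.31 in dehydrated and 1.42 ± 0.16 in control pools (SD, n = 5 each), a difference of 0.67 (exact two-sided permutation p = 0.0159, adjusted over 4 pairs 0.0635). It did not pass after adjustment, and the groups overlapped where dehydrated 4, at 1.58, lay below control 5, at 1.62. The difference passed without dehydrated 4 (0.80, exact permutation, adjusted p = 0.0317) and without dehydrated 5 (0.67, adjusted p = 0.0476). Under the other 12 of its 14 alternatives the difference did not pass (exact permutation, adjusted p up to 0.114). Without dehydrated 5 and control 1 the test has so few splits that 1 pair alone could not pass after adjustment over 4. Only the difference of such a ratio between groups has a meaning, since the probe sets of different genes do not share a scale.

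The HSP110 proteins are relatives of HSP70 that act as its nucleotide exchange factors, and neither measured member passed on all 10 arrays. Hspa4l, a member with a known role in spermatogenesis in mice, had signals (1378002_at) of 322.3, 255.7, 279.3, 347.0 and 449.4 in dehydrated pools, against 407.5, 366.7, 437.5, 439.5 and 414.4 in control pools. Of the dehydrated pools 4 lay below every control pool, and dehydrated 5 lay above every control pool. Its log2 change was -0.34, with a 95% interval of -0.59 to -0.09 (limma adjusted p = 0.151). Without dehydrated 5 it was -0.46 and passed (limma adjusted p = 0.00944), and likewise without dehydrated 5 and control 1 (-0.46, adjusted p = 0.0141). Dehydrated 5 is the array with the lowest 3′ to 5′ ratio of its group. With this ratio as a term in the fit the log2 change was -0.23 on all arrays (limma adjusted p = 0.415) and -0.28 without dehydrated 5 and control 1 (adjusted p = 0.819).

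Hsph1, the heat-inducible HSP110 itself, gave a different picture by probe set. The brighter one (1388898_at) had signals of 649.4, 591.0, 621.3, 564.8 and 660.4 in dehydrated pools, against 634.0, 641.1, 611.1, 640.2 and 635.3 in control pools. The control pools lay within the range of the dehydrated pools, and the log2 change was -0.04, with a 95% interval of -0.17 to 0.10 (limma adjusted p = 0.823). The dimmer one (1385620_at) had 150.4, 136.7, 126.9, 159.5 and 235.4 in dehydrated pools, against 149.8, 191.2, 209.8, 216.5 and 259.8 in control pools. Here 4 dehydrated pools and control 1 were low, whereas dehydrated 5 was second only to control 5. Its log2 change was -0.35, with an interval of -0.68 to -0.02 (limma adjusted p = 0.263), and it passed without dehydrated 5 (-0.49, adjusted p = 0.0351) and without dehydrated 5 and control 1 (-0.59, adjusted p = 0.00632). With the ratio in the fit of all arrays it was -0.12 (limma adjusted p = 0.721). The log2 ratio of Hsph1, by its brighter probe set, to Hspa4l was 0.92 ± 0.28 in dehydrated and 0.61 ± 0.12 in control pools (SD, n = 5 each), and the difference of 0.30 did not pass (exact two-sided permutation p = 0.0714, adjusted over 4 pairs 0.143). It passed without dehydrated 5 (0.40, exact permutation, adjusted p = 0.0476), but not under the other 13 of its 14 alternatives (adjusted p up to 0.286). Without dehydrated 5 and control 1 this test had the same limit of few splits.

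Hsp90ab1 encodes the constitutive HSP90 of the cytosol. Its brighter probe set (1375336_at) had signals of 2236.9, 1644.4, 1970.3, 2537.4 and 2967.3 in dehydrated pools, against 2205.8, 2310.2, 2878.2, 2526.9 and 3451.7 in control pools. The lowest values were those of dehydrated 2 and 3 and the highest that of control 5, with overlap between. The log2 change was -0.25, with a 95% interval of -0.55 to 0.06 (limma adjusted p = 0.399). The other probe set (1375335_at) ranged from 588.3 to 1235.9, with a median of 1002.4, in dehydrated pools and from 821.4 to 1389.3, with a median of 1049.7, in control pools, a log2 change of -0.20 (limma adjusted p = 0.565), and -0.04 without dehydrated 1, its lowest pool (adjusted p = 0.924). Neither passed under any setting tried, and the lowest adjusted p was 0.0656, for the brighter one without dehydrated 5 and control 1 (-0.41). With the ratio in the fit of all arrays their log2 changes were -0.03 and -0.05 (limma adjusted p = 0.950 and 0.934).

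The J-domain proteins deliver clients to HSP70 and trigger its ATPase. Dnaja1, a farnesylated J-domain protein of the cytosol, had signals on its brighter probe set (1368852_at) of 788.3, 724.4, 833.8, 839.3 and 834.7 in dehydrated pools, against 808.5, 788.6, 821.8, 830.6 and 764.2 in control pools. The groups overlapped, and the log2 change was 0.00, with a 95% interval of -0.14 to 0.14 (limma adjusted p = 0.996), negative under 9 of its alternatives. Its dimmer probe set (1398819_at) had 602.3, 476.7, 597.5, 656.6 and 781.4 in dehydrated pools, against 679.8, 726.5, 751.7, 704.1 and 749.3 in control pools. Again 4 dehydrated pools lay below all control pools and dehydrated 5 above them. That log2 change was -0.23, with an interval of -0.44 to -0.02 (limma adjusted p = 0.252), and it passed without dehydrated 5 (-0.31, adjusted p = 0.0378) and without dehydrated 5 and control 1 (-0.34, adjusted p = 0.0369). With the ratio in the fit of all arrays it was -0.10 (limma adjusted p = 0.667).

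Dnajb1 encodes HSP40, the J-domain partner of HSP70 that is strongly induced by heat. Its brighter probe set (1388722_at) had signals of 280.5, 334.9, 308.1, 313.6 and 341.1 in dehydrated pools, against 317.6, 317.9, 326.4, 407.1 and 333.3 in control pools, and control 4 stood above all others. The log2 change was -0.10, with a 95% interval of -0.28 to 0.08 (limma adjusted p = 0.566), and -0.04 without control 4 (adjusted p = 0.856). The dimmer probe set (1383302_at) had 84.3, 67.8, 79.0, 109.4 and 130.8 in dehydrated pools, against 72.8, 123.9, 153.6, 121.4 and 142.7 in control pools. Control 1 was the second lowest of all 10 and dehydrated 5 lay among the control pools. The log2 change was -0.36, with an interval of -0.76 to 0.04 (limma adjusted p = 0.342), and it passed without dehydrated 5 and control 1 (-0.65, adjusted p = 0.0122). With the ratio in the fit of all arrays it was -0.05 (limma adjusted p = 0.903). The within-array log2 ratio of Dnajb1 to Dnaja1, by their brighter probe sets, differed between the groups by -0.11 (exact two-sided permutation p = 0.262, adjusted over 4 pairs 0.349).

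Hspd1, the HSP60 chaperonin of mitochondria, had signals (1386894_at) of 1609.8, 1357.0, 1612.2, 1527.7 and 1596.8 in dehydrated pools, against 1408.7, 1425.8, 1443.0, 1482.6 and 1512.7 in control pools. Of the dehydrated pools 4 lay above every control pool and dehydrated 2 lay below them all. The log2 change was 0.08, with a 95% interval of -0.06 to 0.22 (limma adjusted p = 0.569). Hspe1 encodes its co-chaperonin HSP10, from a gene that lies head to head with Hspd1 in mammals, and had a log2 change of 0.15 (limma adjusted p = 0.254). The within-array ratio of Hspd1 to Hspe1 differed between the groups by -0.07 (exact two-sided permutation p = 0.484, and 0.484 adjusted over 4 pairs).

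The probe sets shared by a member and a second gene are given by identifier only. Probe set 1398240_at, annotated with Haus8l2 and Hspa8, had signals of 3855 ± 198 in dehydrated and 3551 ± 233 in control pools (SD, n = 5 each), a log2 change of 0.12 with a 95% interval of -0.02 to 0.26 (limma adjusted p = 0.385). Probe sets 1372701_at and 1388850_at, annotated with Hsp90aa1 and its pseudogene Hsp90aa1-ps17, had log2 changes of 0.02 and -0.13 (limma adjusted p = 0.908 and 0.732). None of these 3 probe sets passed, and the signal of each cannot be divided between its genes.

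**Figure D2:**
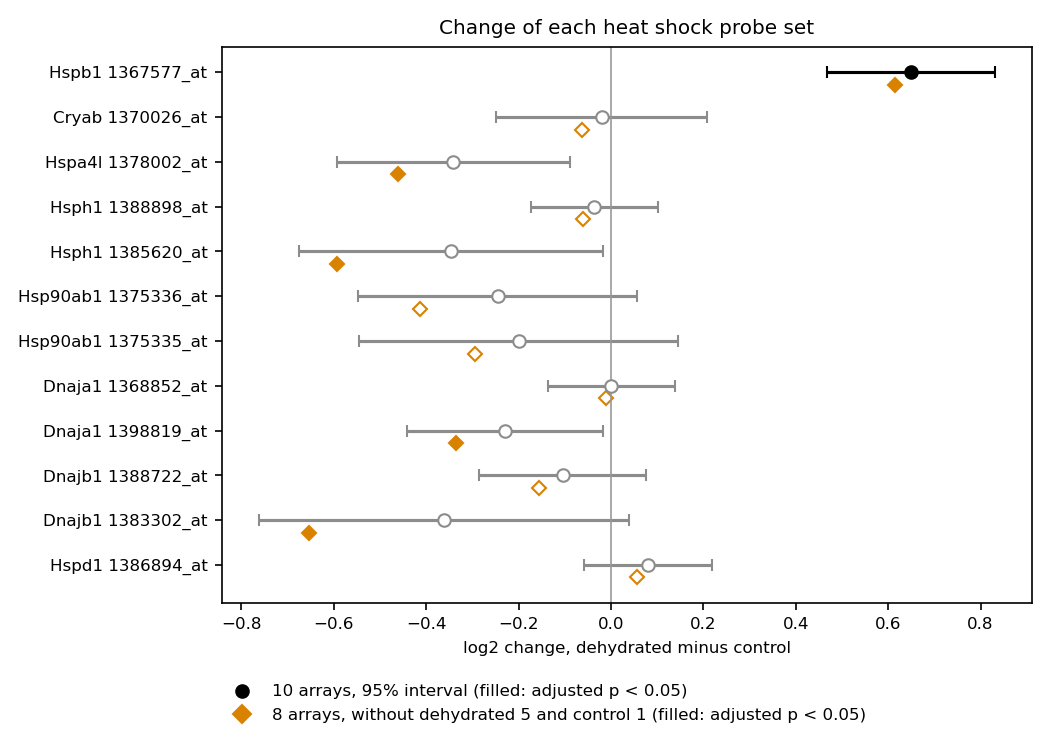
Log2 change, dehydrated minus control, of each heat shock probe set. Circles with whiskers are the fit of all 10 arrays with its 95% interval, and diamonds are the fit of 8 arrays without dehydrated 5 and control 1, filled where the adjusted p was under 0.05. Hspb1 alone is filled among the circles, and among the diamonds Hspb1 is filled on the positive side, while Hspa4l and the dimmer probe sets of Hsph1, Dnaja1 and Dnajb1 are filled on the negative side. In the fit of 8 arrays 1398 of 18625 tested probe sets passed, 666 higher and 732 lower. The groups of that fit are separated by the 3′ to 5′ ratio, so that dehydration and this ratio cannot be told apart there.

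Where a gene had 2 probe sets, they were set against the 3′ to 5′ ratio of GAPDH and beta-actin, a comparison chosen after the data were seen. The log2 ratio of the dimmer to the brighter probe set was related to the 3′ to 5′ ratio over the 10 arrays, with each group's mean taken off both. The relation was negative for Dnajb1 (r = -0.92, rho = -0.95, exact permutation adjusted p = 0.00278 and 0.00222 over 4 relations). It was also negative for Dnaja1 (r = -0.84, rho = -0.90, exact permutation adjusted p = 0.00292 and 0.00319). For Hsph1 it was of the same kind (r = -0.84, rho = -0.84, exact permutation adjusted p = 0.00926 and 0.00583). Without dehydrated 2 and control 1, the arrays farthest from the median on the x axis, r was -0.78, -0.87 and -0.81 for Dnajb1, Dnaja1 and Hsph1. The probe sets of Hsp90ab1 showed no such relation (r = 0.27, rho = 0.30, exact permutation adjusted p = 0.451 and 0.429; r = -0.39 without those arrays).

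Between dehydrated and control pools these within-gene ratios differed by -0.31 for Hsph1, -0.23 for Dnaja1, -0.26 for Dnajb1 and 0.05 for Hsp90ab1, none of which passed (exact two-sided permutation, lowest p = 0.0556, lowest adjusted p = 0.222).

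**Figure D3:**
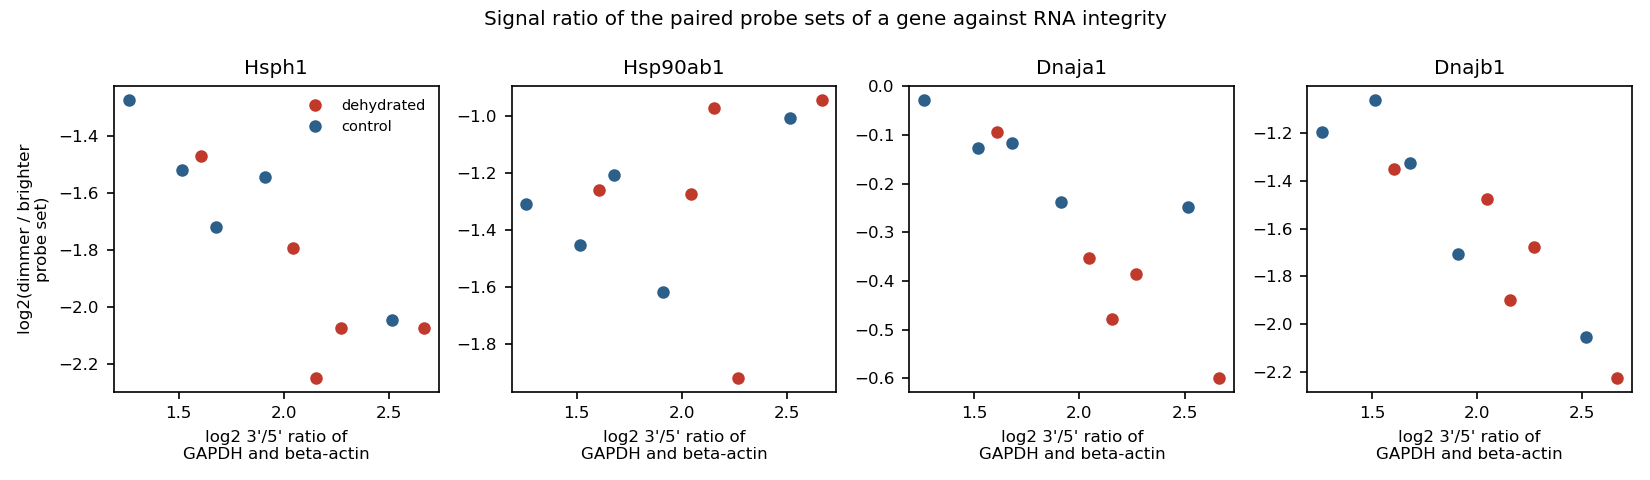
Log2 ratio of the dimmer to the brighter probe set of Hsph1, Hsp90ab1, Dnaja1 and Dnajb1 (y axis) against the log2 3′ to 5′ ratio of GAPDH and beta-actin (x axis), with 1 point per pool. The points run downward for Hsph1, Dnaja1 and Dnajb1, with dehydrated 5 among the control pools on the left and control 1 among the dehydrated pools on the right, and show no such course for Hsp90ab1.

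Among the brightest probe sets of the 8 genes, that of Hsp90ab1 varied with the 3′ to 5′ ratio within groups (r = -0.86, rho = -0.87, exact permutation adjusted p = 0.0233 and 0.0367 over 8 relations; r = -0.83 without dehydrated 2 and control 1). For the other 7 genes r lay between -0.60 for Hspd1 and -0.08 for Dnajb1 and none passed; for Hspb1 it was -0.14 (rho = -0.19, exact permutation adjusted p = 0.798 and 0.618). With this ratio in the fit of all 10 arrays Hspb1 was still called and no other member was.

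Members were also compared with each other across pools, again with the group means taken off. Of 28 pairs 22 correlated positively, and none passed after adjustment. The pairs share the same 8 genes, all of which had a negative r with the 3′ to 5′ ratio. Pairs of other genes were not counted, and the part of this ratio was not tested. The closest pair was Hspa4l with Hsp90ab1 (r = 0.80, rho = 0.83, exact permutation p = 0.0107 and 0.00944, adjusted 0.299 and 0.264), and r was 0.55 without dehydrated 2 and 5. Over the 10592 other genes the patterns most like that of Hspb1 within groups were those of Krt7, Pigl, Eif4h, LOC100912002 and Nxn, with r from 0.90 to 0.94 over 10 arrays. Those most like Hsph1 were Tspan18, Ung, Rgs4, Zfta and Med24, with r from 0.87 to 0.94. These are the highest of many values and are given as a description.

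The wider chaperone system was read through 7 lists of 87 further genes, of which 77 were tested: 2 rose, none fell and 75 did not pass, beside 2.31% of all tested genes that were higher. The median log2 change of the 77 was 0.04. Of the heat shock factors and their binding protein Hsbp1, 3 genes were tested and none passed. Hsf1, the main activator of the heat shock response, had a log2 change of 0.02 (limma adjusted p = 0.958), and Hsf2, a related factor active in development, one of 0.22 (adjusted p = 0.275). With its probe sets averaged, the log2 change of Hsf2 was -0.10 (limma adjusted p = 0.623). Hsbp1, which binds HSF1, had one of 0.05 (adjusted p = 0.759).

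Of 7 other HSP70 and HSP110 genes none passed. Hspa1a, the strongly heat-inducible HSP70, was dim, with signals of 31.4 ± 10.8 in dehydrated and 25.7 ± 7.51 in control pools (SD, n = 5 each) and a log2 change of 0.23 (limma adjusted p = 0.647). Hspa4, the third HSP110 protein, had the smallest p of its list and signals of 206.5, 192.5, 175.4, 236.2 and 372.4 in dehydrated pools, against 235.3, 362.4, 374.3, 282.4 and 362.6 in control pools. Dehydrated 5 again lay far above the rest of its group. The log2 change of Hspa4 was -0.47 (limma adjusted p = 0.168), and it passed without dehydrated 5 (-0.65, adjusted p = 0.00833) and without dehydrated 5 and control 1 (-0.75, adjusted p = 0.00145). With the ratio in the fit it was -0.22 on all arrays (limma adjusted p = 0.479) and -0.49 on the 8 arrays (adjusted p = 0.582).

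Of the other small heat shock proteins, Hspb6, Hspb7 and Hspb8 were tested and none passed. Hspb7, a small heat shock protein of heart and muscle, had a log2 change of 0.42 (limma adjusted p = 0.329), Hspb6 one of -0.05 and Hspb8, a partner of Bag3 in selective autophagy, one of -0.02 (adjusted p = 0.803 and 0.938). None of 20 other J-domain genes passed, with log2 changes from -0.36 to 0.31, and Dnajc14 had the smallest p (-0.27, limma adjusted p = 0.178).

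Among 23 co-chaperones 1 rose and none fell, where 2.31% of all tested genes rose and 0.878% fell. Fkbp5, an immunophilin that binds HSP90 in steroid receptor complexes and is a known glucocorticoid target, had signals of 159.9, 189.1, 177.1, 198.2 and 197.4 in dehydrated pools, against 144.6, 101.4, 133.9, 155.5 and 139.3 in control pools. The groups did not overlap, as in 413 of all 10593 tested genes with the dehydrated group higher. The log2 change of Fkbp5 was 0.45 ± 0.11 SE (limma adjusted p = 0.0417). The call ended without dehydrated 2, 3 or 4, without control 2, 3 or 5, without a filter or an intensity trend, and when the fit of all arrays held the 3′ to 5′ ratio (limma adjusted p up to 0.0923 in these settings). It also ended on the 8 arrays without dehydrated 5 and control 1 with the ratio in the fit (0.43, adjusted p = 0.760). Its relative Fkbp4 had a log2 change of -0.05 (limma adjusted p = 0.870), and Stip1, the adaptor between HSP70 and HSP90, one of -0.22 (adjusted p = 0.504). Bag3, a heat-inducible partner of HSP70, had one of -0.16 (adjusted p = 0.398).

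Of 13 genes of the CCT chaperonin and of prefoldin, which fold actin and tubulin, 1 rose and none fell, beside 2.31% of all tested genes that rose. The log2 change was positive for 11 of them and negative for 2, where 5465 of all 10593 tested genes were positive. At an unadjusted limma p of 0.05, 5 of the 13 passed, where 18.9% of all tested genes did. In 4 the groups did not overlap and the dehydrated group was higher, as in 413 of all 10593 tested genes. Pfdn5, a prefoldin subunit, had signals of 2068.2, 2174.5, 1953.9, 1735.0 and 1649.8 in dehydrated pools, against 1416.7, 1483.0, 1337.6, 1374.9 and 1699.6 in control pools. Control 5 alone lay within the range of the dehydrated pools, just above dehydrated 5. The log2 change was 0.39 ± 0.09 SE (limma adjusted p = 0.0253), and the call ended without dehydrated 1, 2 or 3, without control 1, 2, 3 or 4, without a filter or an intensity trend, with cyclic loess, and when the fit of all arrays held the 3′ to 5′ ratio (limma adjusted p up to 0.0987 in these settings). On the 8 arrays with the ratio in the fit it was 0.41 and did not pass (adjusted p = 0.599). Of 8 mitochondrial chaperones none passed. Grpel1, the exchange factor of mitochondrial HSP70, came closest at 0.30 (limma adjusted p = 0.0581). Its signals were 417 ± 38.5 in dehydrated and 337 ± 22.4 in control pools (SD, n = 5 each) and did not overlap. It passed without dehydrated 4 or 5 (limma adjusted p = 0.0474 and 0.0231). Grpel1 also passed in the brightest 40%, with median centring, with array weights and without dehydrated 5 and control 1. With the 3′ to 5′ ratio in the fit of all arrays it was 0.24 and did not pass (limma adjusted p = 0.172).

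**Figure D4:**
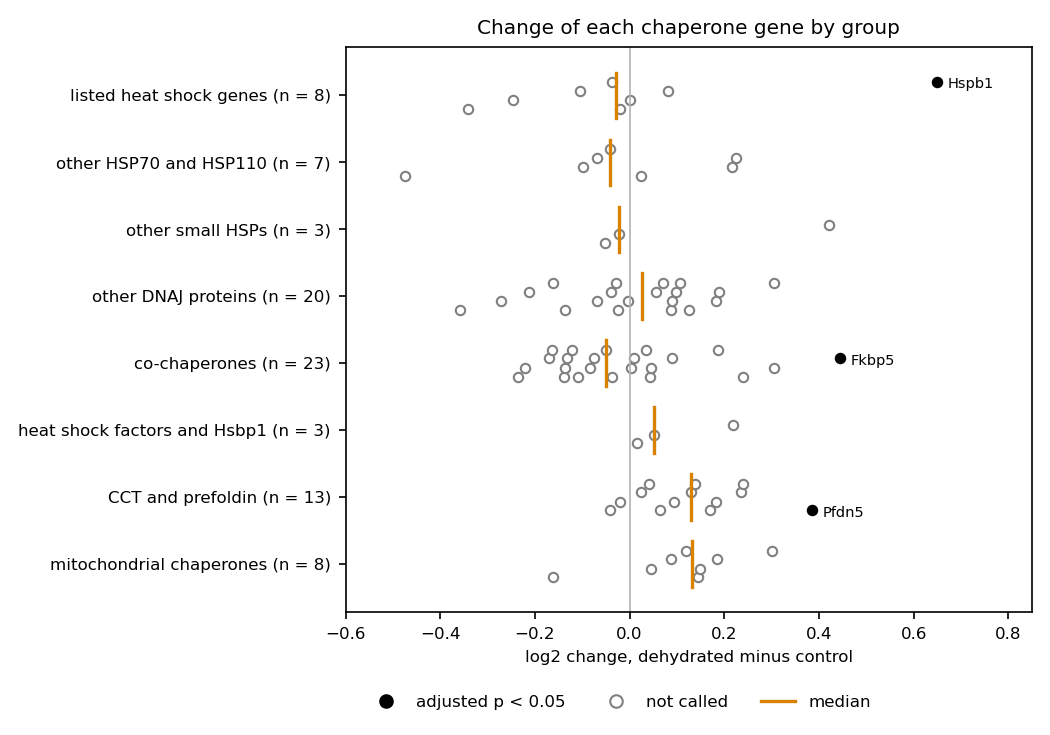
Log2 change, dehydrated minus control, of the 8 heat shock genes and of the tested genes of 7 further chaperone groups, with 1 point per gene by its brightest probe set. Filled points passed an adjusted p of 0.05 and are named, and orange lines are group medians. Hspb1, Fkbp5 and Pfdn5 are the filled points, all on the positive side.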

How the data were processed

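For each array the deposited values are linear intensities, 1 for every probe set. Per the submitters' processing notes the arrays were read with GCOS 1.2, and its algorithm and settings are not given in the sources used here. The authors' values had a mean of about 100 on every array after 2% was trimmed at each end, and no further scaling was applied. Signal over background is unknown, so precision rests on the count of 5 pools a group.

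Of 31099 probe sets 57 controls were left out, and 20826 of the other 31042 had 1 symbol, 436 several and 9780 none. Values were taken as log2(signal + 5), which understates changes of dim genes, and the brightest 60% (18625) were tested with limma 3.58.1 in R 4.3.3 (lmFit, eBayes with an intensity trend) and Benjamini-Hochberg adjustment over all of them. A gene is read by its brightest tested probe set. Log2 changes are dehydrated minus control with 95% intervals. In all, 458 probe sets (2.46%) passed, 312 higher and 146 lower. Single measures used an exact permutation test over 252 splits, and correlations all 14400 orders within groups, in Python 3.11.15 with numpy 2.4.6 and figures in matplotlib 3.10.9.

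Members and gene lists were chosen with earlier results of these data known. The text names every member, up to 6 called genes of each list (or the one with the smallest p), the 5 closest patterns to Hspb1 and Hsph1, and a few others chosen after their values were seen (Hsf1, Hsbp1, Hspa1a, Hspb6, Hspb8, Hspe1, Fkbp4, Stip1 and Bag3). Pair tests with Hspa8 or Hsp90aa1 could not be run, which left 4 of 6. On simulated data over 18625 probe sets, 36% of changes of 0.5, 90% of 1, 98% of 2 and 100% of 3 (log2) were recovered, and 9 of 171 calls were false. The simulated noise was independent between probe sets. These rates therefore do not cover variation that probe sets share, such as that with the 3′ to 5′ ratio.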

Additional observations from a re-analysis of the deposited data

Results flagged for a closer look

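Each group of 5 pools was screened for a single pool far from the others (by Dixon's gap over range), in 34 groups of values, of which chance marks about 1 in 20. The screen marked 3. Dehydrated 4 was low for Hspb1, at a signal of 382.7, and without it the log2 change was 0.72 (limma adjusted p = 9.3e-05). Control 3 was low for the brighter probe set of Hsph1, at 611.1, and without it the log2 change was -0.05 (limma adjusted p = 0.821). Control 4 was high for the brighter probe set of Dnajb1, at 407.1, and without it the log2 change was -0.04 (limma adjusted p = 0.856).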

How the results depend on the processing

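The labels give no replicate numbers, and the arrays of each group are numbered here in the order of the deposited samples. No paired analysis was possible because the labels pair no dehydrated pool with a control pool. The number of called probe sets, 458 on all arrays, was 240 without an intensity trend, 730 with array weights, 1398 without dehydrated 5 and control 1, 24 when the ratio was then a covariate, and 218 to 1163 when single arrays were left out. With median centring 80.1% of calls were higher, beside 68.1% as scaled by the authors, 56.1% without dehydrated 5 and 47.6% without dehydrated 5 and control 1 (666 higher, 732 lower). Called members numbered 2 without dehydrated 5 and control 1, 0 when the ratio was then a covariate, and 1 to 2 with single arrays left out. Called genes among the other chaperones, 2 on all arrays, numbered 0 without a filter, without an intensity trend or with the ratio as a covariate (all arrays, or without the 2 arrays), 4 in the brightest 40%, 5 with median centring or array weights, 1 with cyclic loess, 7 without the 2 arrays, and 0 to 8 with single arrays left out. Leaving out single arrays gave differences of the within-array ratio of 0.59 to 0.80 for Hspb1 to Cryab, 0.24 to 0.40 for Hsph1 to Hspa4l, -0.16 to -0.05 for Dnajb1 to Dnaja1 and -0.11 to 0.0011 for Hspd1 to Hspe1, and of 0.24 to 0.56 for the 3′ to 5′ ratio (0.56, exact permutation p = 0.0476, without control 1).

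Signs turned only for log2 changes that had not passed. Cryab was 0.00059 with quantile normalization, 0.0161 with median centring, 0.0134 with the ratio as a covariate and -0.0742 to 0.0457 with single arrays left out. Dnaja1 was -0.0283 with quantile, -0.0496 with cyclic loess, -0.114 with probe sets averaged, -0.0104 without the 2 arrays and -0.0166 to 0.0377 with single arrays left out. Hspd1 was -0.00525 with cyclic loess and Hsf2 -0.10 with probe sets averaged. Without the 2 arrays and with the ratio as a covariate, an alternative chosen after seeing the data, the probe sets of Hsp90ab1 were at 0.15 and 0.24 and Hspb7 at -0.16. The causes were not tested.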
